A study of Mus musculus with 8 samples.

Results

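Cd34, Kit, Cd93 and Angpt1 are genes of immature blood cells, and were followed here through 4 treatments of a mouse leukemia. They are 4 of the 12294 genes measured and were chosen by name, with their levels in all 8 libraries known. Their levels and differences are therefore given as a description, with no test. Kit, Cd34 and Cd93 encode surface proteins, whereas Angpt1 encodes a secreted ligand. KIT protein was also the marker on which the cells were sorted.

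KIT, also called CD117, is the receptor tyrosine kinase for stem cell factor, and its signal maintains hematopoietic stem and progenitor cells, mast cells and early erythroid cells. CD34 is a sialomucin, a heavily glycosylated membrane protein of stem and progenitor cells. CD93, known in the mouse as the AA4.1 antigen, is a C-type lectin domain protein of early progenitors and endothelium. Angiopoietin 1, the product of Angpt1, activates the receptor TIE2, which the gene Tek encodes.

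Expression was measured by QuantSeq, which sequences the 3′ end of each polyadenylated transcript, in cells the labels call I1DN leukemic progenitors. All mice were transplanted with I1DN leukemic cells and treated for 5 days. The groups were vehicle (Veh), AG120 (ivosidenib, which inhibits the mutant enzyme IDH1), AZA (azacitidine, a nucleoside that blocks DNA methyltransferases), and both drugs (AG120_AZA), with 2 libraries each. Flow sorting kept the cKit+ CD11b- cells. The labels name neither the alleles behind the name I1DN nor the age of the mice, and they do not say that each library is a separate mouse. The errors therefore measure the spread between these libraries.

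In the mouse genome (mm10, GRCm38; GENCODE M21 spans), Kit lies on the plus strand of chromosome 5 from 75574916 to 75656722. Cd34 lies on the plus strand of chromosome 1 from 194938819 to 194961279. Cd93 is on the minus strand of chromosome 2 from 148436640 to 148443563, and Angpt1 on the minus strand of chromosome 15 from 42424723 to 42676977. An antisense transcript is annotated across Cd34 (Gm16897) and another across Angpt1 (Gm17473). Whether reads were counted by strand was not stated, so reads of these antisense genes cannot be told apart from the 2 members. No annotated gene overlaps Kit or Cd93.

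Because azacitidine acts on the methylation of cytosines followed by guanine, the sequence before the start of the genes is shown with those CG pairs in capitals. A RefSeq start (GRCm38.p6) was found for 2 of the 4 genes, Cd34 and Kit. The stretches run 5′ to 3′ on the plus strand, from 250 to 76 bases before the start.
Cd34, chr1:194938571-194938745: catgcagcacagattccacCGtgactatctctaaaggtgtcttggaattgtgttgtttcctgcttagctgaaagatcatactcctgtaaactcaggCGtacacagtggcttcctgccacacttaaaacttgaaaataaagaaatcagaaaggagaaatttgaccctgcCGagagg
Kit, chr5:75574737-75574911: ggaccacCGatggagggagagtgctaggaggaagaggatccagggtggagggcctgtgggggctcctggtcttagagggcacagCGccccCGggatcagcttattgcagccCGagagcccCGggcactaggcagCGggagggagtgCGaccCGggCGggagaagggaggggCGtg
The Kit stretch held 10 CG pairs in 175 bases and a GC content of 69.1%, and the Cd34 stretch held 3 CG pairs and 43.4%. Among the same window of 27025 genes, 24.1% had at least as many CG pairs as Kit and 58.4% at least as many as Cd34. The motif GATAA, searched on both strands, was in neither stretch and in 18.1% of all windows. These are properties of the sequence, and methylation was not analysed here.

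The deposited values are log2 CPM (reads of a gene scaled to a common library total), brought by the authors to the same distribution in every library. The depth of the libraries is therefore unknown. Within a library a higher value means more reads, so the number of distinct values below a gene is a lower limit on the reads that separate it from the lowest genes. For the median gene this limit was 105 to 149 reads per library. The members rested on at least 86 (Cd34 in AG120_AZA replicate 2) to 1551 (Cd93 in Veh replicate 2). Of the sort markers, Kit was above 48.2% to 84.4% of genes in each library. Itgam, which encodes CD11b, ranged from 2.10 to 4.53 log2 CPM and was above 20.8% to 52.8% of genes, so its transcript was present in every library of the CD11b-negative gate.

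Kit, the sorted receptor, stood at 6.31 and 6.59 log2 CPM in the Veh libraries, replicate 1 first here and below. It stood at 5.15 and 5.84 in AG120, at 6.65 and 5.54 in AZA, and at 4.51 and 4.26 in AG120_AZA. Both AG120_AZA libraries were below every other library, and the AZA libraries spanned from the highest value of all to a level below AG120 replicate 2. In linear units the Veh libraries held 79.2 and 96.1 CPM and the AG120_AZA libraries 22.8 and 19.1. Kit was lower by 2.06 ± 0.37 (moderated SE) on the log2 scale in AG120_AZA than in Veh, or 4.18-fold lower. It was 1.93-fold lower in AG120 than in Veh (log2 difference -0.95 ± 0.37). The AZA mean was 0.35 ± 0.37 lower than the Veh mean, within the spread of the AZA libraries. The sort selects cells by KIT protein, and the transcript still differed between groups of cells that had passed the same gate.

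Cd34 was the member with the widest range, 3.81 on the log2 scale. It stood at 7.91 and 7.31 log2 CPM in Veh, 6.0 and 6.11 in AG120, 7.72 and 7.28 in AZA, and 4.41 and 4.10 in AG120_AZA. The 4 groups fell into 3 levels that did not overlap: Veh with AZA at the top, then AG120, then AG120_AZA. In linear units, 241.2 and 158.8 CPM in Veh compared with 63.9 and 69.1 in AG120 and 21.2 and 17.2 in AG120_AZA. The fold differences from Veh were 2.94-fold lower in AG120 (log2 difference -1.56 ± 0.27, SE) and 10.2-fold lower in AG120_AZA (-3.36 ± 0.27). The AZA and Veh libraries overlapped, with a difference of -0.11 ± 0.27. Cd34 moved from above 94.0% and 90.5% of genes in the Veh libraries to above 50.8% and 45.8% in the AG120_AZA libraries.

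Cd93 had the smallest SE of the members. Its levels were 8.90 and 8.93 log2 CPM in Veh, 6.86 and 7.46 in AG120, 8.68 and 8.44 in AZA, and 6.76 and 6.79 in AG120_AZA. All 4 libraries with AG120 were below all 4 without it, by a gap of 0.98. Against Veh it was 3.37-fold lower in AG120 (log2 difference -1.75 ± 0.22, SE) and 4.40-fold lower in AG120_AZA (-2.14 ± 0.22). Both AZA libraries were below both Veh libraries, by 0.22 at the nearest and by 0.36 ± 0.22 in the mean. The AG120_AZA libraries were below the AG120 libraries by only 0.071 at the nearest.

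Angpt1, the ligand, was the most variable between replicates. It stood at 7.04 and 6.02 log2 CPM in Veh, 5.45 and 4.55 in AG120, 6.43 and 5.52 in AZA, and 5.11 and 5.13 in AG120_AZA. The highest library with AG120 and the lowest without it were only 0.074 apart. Against Veh, Angpt1 was 2.90-fold lower in AG120 (log2 difference -1.53 ± 0.41, SE) and 2.66-fold lower in AG120_AZA (-1.41 ± 0.41). The AG120_AZA libraries lay between the AG120 libraries, with a difference between the means of 0.12 ± 0.41. The AZA libraries overlapped those of Veh (-0.55 ± 0.41).

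**Figure D1:**
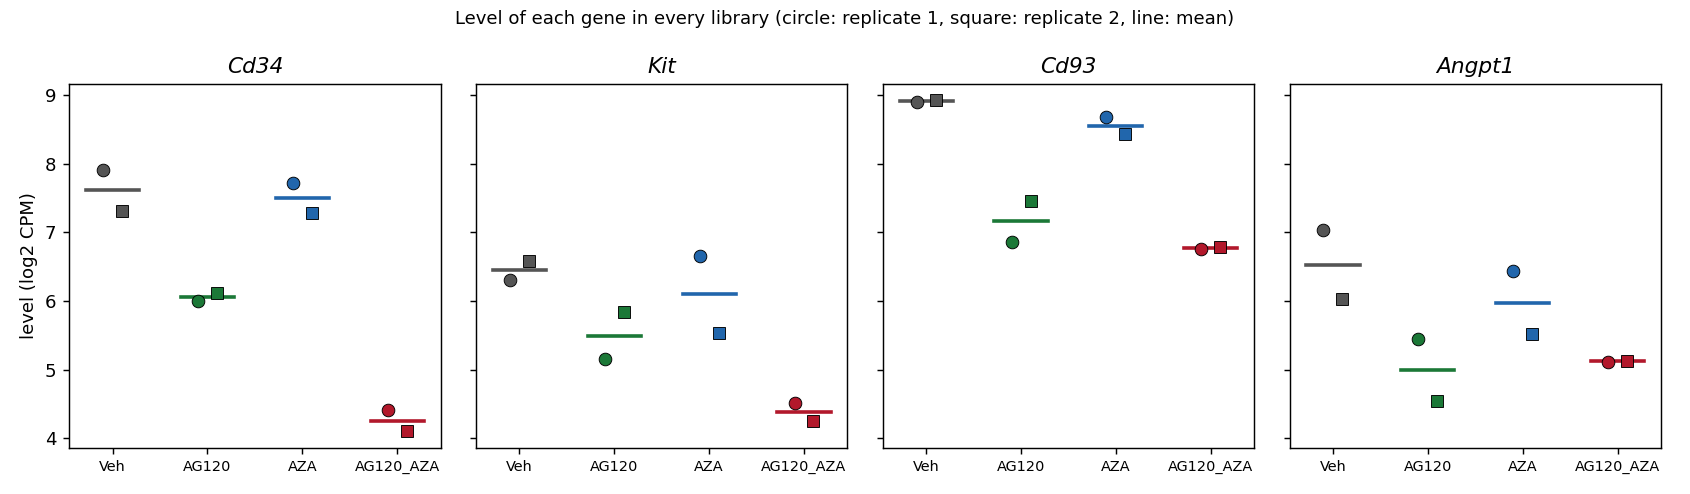
Level in log2 CPM (vertical axis) of Cd34, Kit, Cd93 and Angpt1 in every library by group; circles are replicate 1, squares replicate 2 and lines group means. Cd34 and Kit are lowest in AG120_AZA (4.41 and 4.10, 4.51 and 4.26), while Angpt1 in AG120_AZA (5.11 and 5.13) lies between the AG120 libraries.

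With 2 libraries a group, groups that do not overlap are common: in 22.8% of all genes both AG120 libraries were below both Veh libraries. The members did so in 4 of 4 cases, in a comparison known when they were chosen. Both AG120_AZA libraries were below both Veh libraries for 4 of 4 members and for 23.9% of all genes, and below both AZA libraries for 4 of 4 members and 22.9% of genes. They were below both AG120 libraries for 3 of 4 members, Angpt1 being the exception, and for 20.6% of genes. Both AZA libraries were below both Veh libraries for 1 of 4, Cd93, and for 15.3% of genes. All 4 libraries with AG120 were below all 4 without it for 3 of 4 members, with AZA replicate 2 below AG120 replicate 2 for Kit, and for 5.99% of genes. The same libraries serve in several of these comparisons, so the counts are not independent. In these bulk samples, fewer cells that express a gene and less RNA of it per cell cannot be told apart.

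**Figure D2:**
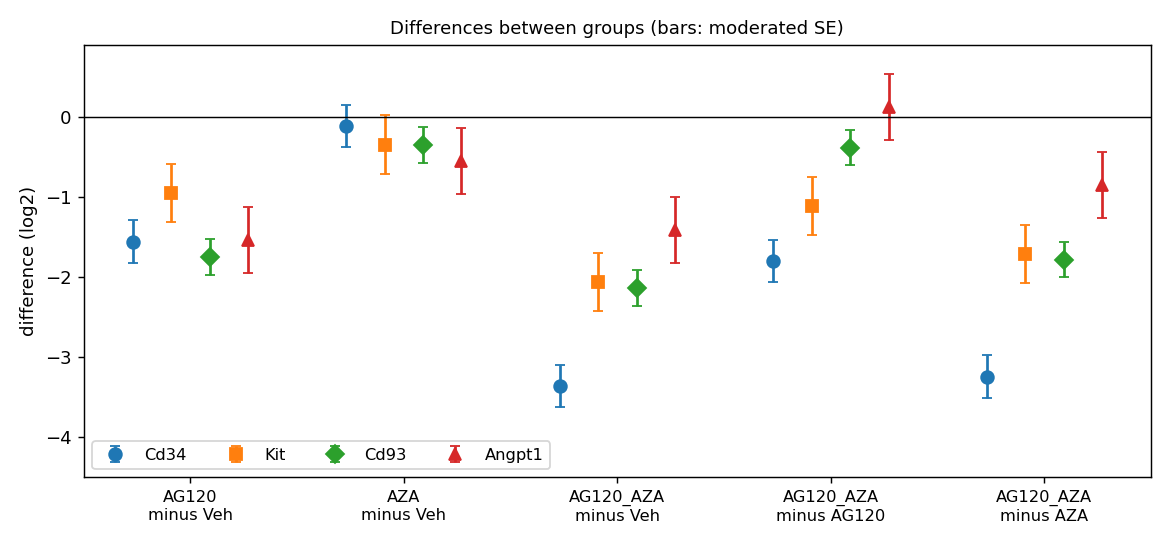
Log2 difference between group means (vertical axis) for each pair of groups, with bars showing the moderated SE and a marker for each gene. Cd34 has the lowest points, at -3.36 for AG120_AZA minus Veh and -3.24 for AG120_AZA minus AZA.

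The members differed in how AG120_AZA compared with AG120. Cd34 was 3.48-fold lower in AG120_AZA than in AG120 (log2 difference -1.80 ± 0.27, SE) and Kit 2.16-fold lower (-1.11 ± 0.37). Cd93 differed by -0.38 ± 0.22 and Angpt1 by 0.12 ± 0.41. The difference made by AZA in the presence of AG120 minus that in its absence was -1.69 ± 0.38 for Cd34, -0.76 ± 0.52 for Kit, -0.027 ± 0.32 for Cd93 and 0.68 ± 0.58 for Angpt1. Limma called 0.0% of all genes for AG120_AZA against AG120 and 0.0% for this interaction, while 1237 and 765 genes had an unadjusted p below 0.05. Without AG120_AZA replicate 1, 213 and 29 genes were called, and without AG120 replicate 1, 7 and 1. When each library was centred on 10 housekeeping genes, which moved the median of all genes by 0.25 for AG120_AZA minus AG120, the Cd93 difference was -0.14.

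Within a library, a constant scale factor cancels from the ratio of a pair of genes, but the authors' mapping of every library to the same distribution does not. The log2 ratio of Cd34 to Kit was 1.61 and 0.72 in Veh, 0.85 and 0.27 in AG120, 1.07 and 1.74 in AZA, and -0.10 and -0.15 in AG120_AZA. The AG120_AZA libraries were thus below all others, while AG120 overlapped Veh. The ratio of Cd34 to Cd93 was -0.99 and -1.61 in Veh, -0.86 and -1.35 in AG120, -0.96 and -1.16 in AZA, and -2.35 and -2.69 in AG120_AZA. Against Angpt1 the AG120_AZA ratios were -0.71 and -1.03, and the other 6 libraries ranged from 0.55 to 1.75. Cd34 and Cd93 were lower by similar amounts in AG120, and Cd34 was the lower relative to all 3 other members where both drugs were given. The ratio of Kit to Cd93 was higher in AG120 (-1.71 and -1.61) than in Veh (-2.59 and -2.34), and in AG120_AZA it was -2.25 and -2.53.

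**Figure D3:**
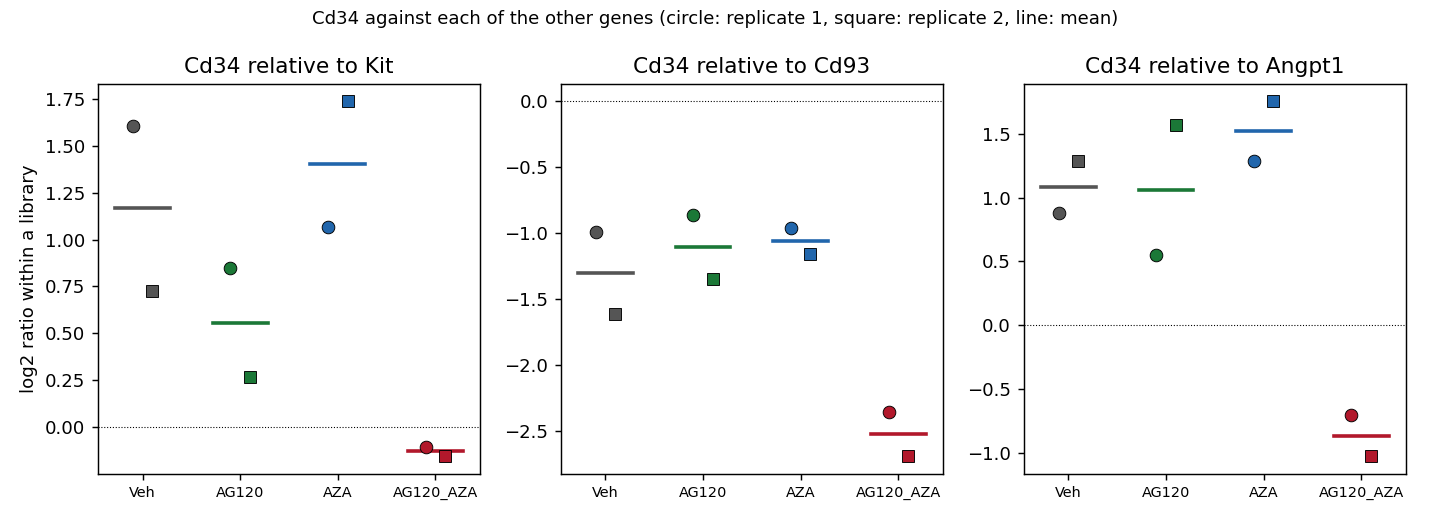
Log2 ratio of Cd34 to Kit, Cd93 and Angpt1 within each library (vertical axis) by group; circles are replicate 1, squares replicate 2 and lines means. In each panel both AG120_AZA libraries lie below the other 6 libraries, at -0.10 and -0.15 for Kit, -2.35 and -2.69 for Cd93, and -0.71 and -1.03 for Angpt1.

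Genes known to work with the members were then tested, from lists that do not hold the members. A gene is called when limma's p, adjusted by the Benjamini-Hochberg method over 12294 genes, is below 0.05. In KIT signalling, which passes through adaptors, lipid and protein kinases, phospholipases and STAT factors, 38 of 39 listed genes were measured. Of these, 1 was called in AG120 against Veh, where 0.578% of all genes were called, and 2 in AG120_AZA against Veh, where 3.02% were. In AG120_AZA against AZA 1 was called, beside 2.26% of all genes. Over both AZA levels, comparing the 4 libraries with AG120 with the 4 without it, 3 were lower and 1 higher, or 10.5%, beside 5.85% of all genes. The median difference of the list in AG120_AZA against Veh was -0.30, with 0.02 for all genes. AZA against Veh gave 0 calls in the list and 0.0% of all genes, and 432 genes had an unadjusted p below 0.05.

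Plcg2, a phospholipase C, led the KIT signalling list. It stood at 7.98 and 7.75 log2 CPM in Veh, 6.22 and 6.60 in AG120, 7.46 and 7.45 in AZA, and 6.26 and 6.26 in AG120_AZA. All libraries with AG120 were below all without it. In AG120, Plcg2 fell on the log2 scale by 1.46 ± 0.21 (SE) (adjusted p = 0.0157) and by 1.61 ± 0.21 in AG120_AZA (adjusted p = 0.00393), against Veh. Stat3, a transcription factor activated by many receptors, fell by 1.24 ± 0.27 in AG120_AZA against Veh (adjusted p = 0.0368). Over both AZA levels Sh2b3, an adaptor that restrains KIT and JAK2 signals, fell by 1.02 ± 0.21 (adjusted p = 0.0160), and the GTPase gene Hras rose by 0.97 ± 0.24 (adjusted p = 0.0376). The other 34 measured genes of the list, among them Grb2, Lyn, Cbl, Jak2, Stat5a and Stat5b, were not called in any of these comparisons. Cbl was nevertheless lower by 2.18 ± 0.63 in AG120_AZA against Veh (limma unadjusted p = 0.00525, adjusted p = 0.085). In that comparison 13 of the 38 genes had an unadjusted p below 0.05, as did 2631 of all 12294. The Plcg2 call in AG120 was lost without Veh replicate 1 or AG120 replicate 1, the Stat3 call in 5 of 8 omissions of a library, the Sh2b3 call in 3 and the Hras call in 7. Without the mean-variance trend the calls of Plcg2 against Veh and against AZA, and of Stat3, Sh2b3 and Hras, were lost. Fitting only the groups compared also ended the call of Plcg2 in AG120 against Veh. The call of Stat3 in AG120_AZA against Veh was lost in that setting and when genes with a mean of at least 5 were kept.

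Around CD34, 7 of 8 listed genes were measured. Of these 1, not reported here by name, was called lower in AG120 against Veh and in AG120_AZA against Veh. It was also called lower in AG120_AZA against AZA and with AG120 over both AZA levels. Each time this was 14.3% of the list, beside 0.578%, 3.02%, 2.26% and 5.85% of all genes, in that order. Podxl, which encodes podocalyxin, a sialomucin related to CD34, was at or near the lowest value in 5 of 8 libraries and at 1.92 and 1.40 log2 CPM in AG120_AZA (adjusted p = 0.183 against Veh). The leukosialin gene Spn differed by 0.25 ± 0.19 in AG120_AZA against Veh and was not called.

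Around CD93, 4 of 8 listed genes were measured and 0 were called in any comparison by limma. Mmrn1 was lower in AG120 than in Veh (log2 difference -3.31 ± 1.18, SE) and higher in AG120_AZA than in AG120 (3.92 ± 1.18). Both differences, and its interaction, had an unadjusted p below 0.05. So did Gipc1 in AZA against Veh and in the interaction, Msn in AG120_AZA against AZA, and Igfbp7 over both AZA levels. Msn, which encodes moesin, an actin linker of membrane proteins, differed by -0.29 ± 0.21 (SE) in AG120_AZA against Veh. Igfbp7, which encodes a secreted CD93 ligand, differed by -0.75 ± 0.42. The receptors of angiopoietins were measured as 2 of 6 listed genes. Tie1 stood at 4.03 and 3.91 log2 CPM in Veh, 3.60 and 1.86 in AG120, 3.56 and 2.75 in AZA, and 4.12 and 3.54 in AG120_AZA, so the groups overlapped except AG120 and AZA with Veh. Tek, which encodes TIE2, ranged from the lowest value in AG120 replicate 2 to 2.10 log2 CPM in AG120_AZA replicate 2. In the latter it was above 20.7% of genes, and in no library were more than 20 distinct values below it. Neither was called by limma in any comparison. Tie1 had an unadjusted p below 0.05 in AG120 against Veh and in the interaction, and Tek in AG120_AZA against AG120 (log2 difference 3.32 ± 1.43, adjusted p = 0.474). The stem cell factor gene Kitl was not analysed here.

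Of 41 other symbols of stem and progenitor surface markers, 34 were measured. In AG120_AZA against Veh 2 were lower and 1 higher, or 8.82%, beside 3.02% of all genes. The median difference there was -0.56, with 25 of 34 negative, and 0.02 for all genes. Over both AZA levels, 3 were lower and 2 higher with AG120, or 14.7%, beside 5.85% of all genes. Against Veh in AG120_AZA, the adhesion molecule gene Alcam fell by 3.98 ± 0.87 (log2, SE; adjusted p = 0.0356) and Csf1r, the receptor of macrophage colony-stimulating factor, by 1.84 ± 0.44 (adjusted p = 0.0480). Cd81, a tetraspanin gene, rose by 1.21 ± 0.27 (adjusted p = 0.0398). With AG120 over both AZA levels, Csf1r (-1.55 ± 0.30) and the integrin gene Itga6 (-1.30 ± 0.27) fell. Eng, which encodes endoglin (0.92 ± 0.20), and the transferrin receptor gene Tfrc (0.84 ± 0.16) rose, with limma adjusted p from 0.0108 to 0.0192 for these 4. Ly6a (Sca-1) and Flt3 lay at or below 2.71 log2 CPM in all libraries and were not called. Tfrc is also in the erythroid list. Omission of a library ended the Cd81 call in 6 of 8 cases, that of Csf1r in AG120_AZA in 5, those of Alcam and Eng in 4, that of Itga6 in 2, and that of Tfrc in 1 (without AG120 replicate 1). Without the trend, of these only Tfrc was called. The Alcam call was also lost with the replicate block (adjusted p = 0.0510 by limma), with vooma weights and with only the groups compared. This last setting also ended the calls of Csf1r and Cd81 in AG120_AZA, as did keeping genes with a mean of at least 5. Alcam lay near the lowest value in the AG120_AZA libraries, at 0.568 and 0.304 CPM with 5 and 1 distinct values below it. None of the 34 was called in AG120 against Veh, where 11 had an unadjusted p below 0.05.

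**Figure D4:**
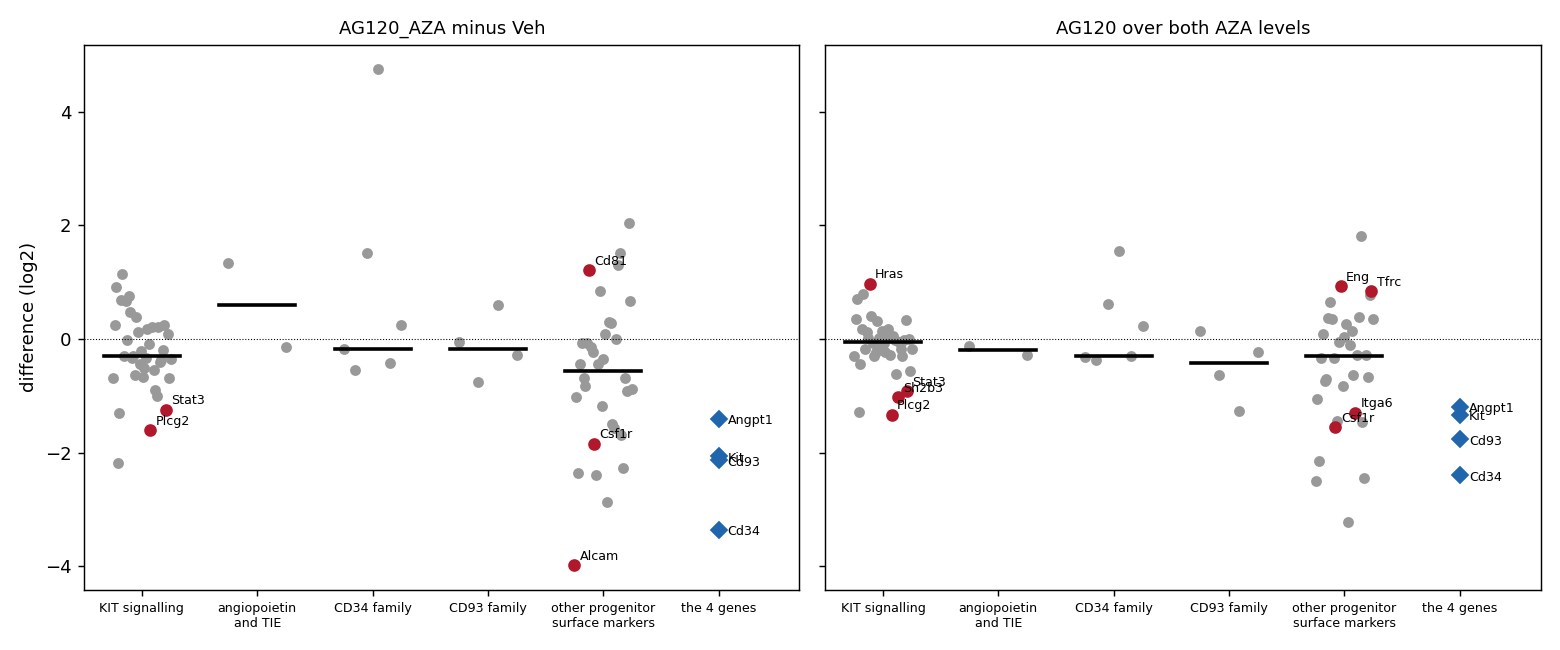
Log2 difference (vertical axis) of the genes reported from 5 lists in AG120_AZA minus Veh (left) and with AG120 over both AZA levels (right); red points are called genes, grey points are not called, lines are medians of the whole lists and blue diamonds are the 4 genes, shown as a description. In the left panel Alcam (-3.98) and Csf1r (-1.84) are called among genes whose list medians lie between -0.56 and 0.60.

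Markers of other cells moved with the same groups. Of 9 measured basophil and mast cell markers other than Kit, 4 rose in AG120 and 4 in AG120_AZA against Veh, or 44.4% each, beside 0.578% and 3.02% of all genes. The summed level of all 9 was 739.1 and 1412.9 CPM in Veh, 1781.0 and 2753.0 in AG120, 1442.4 and 1507.8 in AZA, and 2086.7 and 2864.8 in AG120_AZA (lower value first). Much of the sum was Cpa3, which was not called in either comparison. It held 1036.7 CPM of the 1412.9 in Veh and 1484.8 of the 2864.8 in AG120_AZA. The basophil protease gene Prss34 stood at 3.57 and 2.78 log2 CPM in Veh and 8.60 and 8.79 in AG120_AZA. Of 18 erythroid markers 5 rose in AG120 (27.8%) and 8 in AG120_AZA (44.4%) against Veh, Klf1 from 2.70 and 2.47 in Veh to 6.39 and 5.89 in AG120 and 6.28 and 6.82 in AG120_AZA. Other erythroid genes differed in the opposite direction in AG120 against Veh, 6 of 18 in all. The globin genes Hbb-bs (-1.84 ± 0.58), Hba-a1 (-1.67 ± 0.58) and Hbb-bt (-1.53 ± 0.54) had unadjusted p below 0.05 there, but limma called none of the 6. The summed erythroid level was 2715.1 and 1843.4 CPM in Veh, 2444.3 and 974.9 in AG120, 2148.5 and 5011.1 in AZA, and 4636.6 and 4709.4 in AG120_AZA, replicate 1 first, so AZA replicate 2 was above both AG120_AZA libraries. By group means, Klf1 and Prss34 were in the reverse order of Cd93, Cd34 and Kit, but not of Angpt1. Not every marker of these lists was in that reverse order. Mean Mcpt8 was 6.39 log2 CPM in both AG120 and AG120_AZA, and mean Gata1 was 6.91 in Veh and 6.87 in AZA. The part of the basophil and erythroid markers in the lower levels of the members was not tested. All 9 and all 18 of these markers were above the lowest value in the AG120 and AG120_AZA libraries.

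Mature myeloid markers, 17 of 18 measured, had 0 calls in AG120_AZA against Veh, with 5 at an unadjusted p below 0.05. In AG120_AZA against AZA 4 were called lower by limma, namely Ngp (log2 difference -3.20 ± 0.50, adjusted p = 0.0109), Camp, Ltf and S100a9, or 23.5% beside 2.26% of all genes. With AG120 over both AZA levels, Ngp was called lower (-2.06 ± 0.48, adjusted p = 0.0276). The list summed to 2771.1 and 12766.3 CPM in the Veh libraries, 3839.8 and 6288.0 in AG120, 15005.8 and 10698.3 in AZA, and 2825.8 and 1149.3 in AG120_AZA, replicate 1 first. The AZA libraries were above both AG120_AZA libraries, and the Veh libraries lay far apart. The part of these cells in the levels of the members was not tested. Megakaryocyte markers summed to 2479.6 and 2646.8 CPM in Veh, 1423.5 and 549.2 in AG120, 2264.3 and 2744.0 in AZA, and 3927.6 and 3667.9 in AG120_AZA, so they were low in AG120 and high in AG120_AZA. Lymphoid and endothelial or stromal lists had 3 measured genes each and 0 calls by limma in AG120_AZA against Veh, with 0 at an unadjusted p below 0.05.

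Genes with profiles most like each member were found among 8085 named genes with a mean of at least 3 log2 CPM. Likeness was the root mean square difference between profiles over 8 libraries after each was centred on its mean. Around Kit, the 5 nearest were Nfkbie, Elmo1, Aagab, Gria3 and Smim14, at 0.24 to 0.26 log2 units. The 5 nearest to Cd93 included Tmem176b, Erg, Plcg2 and Parp8, at 0.21 to 0.28. Erg is a transcription factor of stem cells and endothelium. Those of Cd34 included Ccl5, Pou2f2, Unc93b1 and Ms4a6b, at 0.47 to 0.48. Around Angpt1 they were Arhgap6, Mn1, Lbh, H2-Ob and Nlrc3, at 0.24 to 0.27. The members were not among each other's 5 nearest genes: Kit and Cd93 were 0.41 apart, Cd34 and Cd93 0.64, and Cd34 and Angpt1 0.97. In order of distance from Cd34, Cd93 ranked 34 and Kit 43 of 8085, and from Cd93, Kit ranked 49. Cd93 ranked 78 from Kit, whereas Cd34 ranked 406 from Cd93 and 1001 from Kit. Ranks with Angpt1 ran from 295 to 6328. Pearson correlations were 0.89 to 0.92 among Cd34, Kit and Cd93, and 0.64 to 0.76 with Angpt1. Of the 20 nearest genes over all members, 2 were also among the top 5 by correlation. All profiles share the same 8 libraries, and the nearest genes were picked from the whole table, so the distances describe these libraries.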

How the data were processed

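RNA of sorted I1DN cells was read by QuantSeq in 8 libraries, 2 in each of 4 groups, per the labels' protocols. The submitters' processing notes name, in no stated order, edgeR 3.28.1 and limma 3.42.2 in R 3.6.2, HISAT2 2.1.0 with build mm10, cutadapt 1.14, featureCounts from Subread 1.6.3, and bcl2fastq 2.17.1.14. The values deposited by the authors are log2 CPM; every library has a maximum of 13.37, so the libraries had been brought to the same distribution. The gene models used for counting were not stated.

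The values were used as deposited, without a filter. Limma 3.58.1 in R 4.3.3 (lmFit, eBayes with a mean-variance trend) fitted 4 group means over all 8 libraries; an additive model gave the effect of AG120 over both AZA levels. The p-values are two-sided and adjusted over 12294 genes. The fit was tested on simulated data. The members, gene lists and naming rule were chosen with earlier results of these data known. The rule named the members, list genes called at an adjusted p below 0.05, chosen ligands, receptors and markers, and the 5 genes nearest each member. Other list genes given with values (Cbl, Spn, Msn, Igfbp7, Mmrn1, Cpa3) were added after their values were seen. Some genes of the lists are not reported here by name, and the counts and medians of the lists include them. Symbols were matched to GENCODE M21 (12064 of 12294). The labels do not say that replicate numbers pair the libraries. Alternatives left out each library in turn, dropped the trend, used vooma weights, fitted only the groups compared, added a replicate block, centred libraries on housekeeping genes, used linear CPM means with a pseudocount of 1, or kept genes with a mean of at least 5.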

Additional observations from a re-analysis of the deposited data

How the results depend on the processing

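Of 352 recomputed differences of the 4 members, 329 stayed within the spread between replicates, 23 moved further and 0 changed sign where the difference exceeded 2 SE. Many of the 329 could not move, so the count is no measure of stability. Dropping the trend, fitting only the groups compared, the replicate block and the filter left the members' differences unchanged. So did leaving out a library of a group outside the comparison. Leaving out a library moved the Cd34 difference to between -1.86 and -1.26 for AG120 minus Veh, -3.66 and -3.06 for AG120_AZA minus Veh, and -0.42 and 0.19 for AZA minus Veh. It moved Cd93 to between -2.05 and -1.46 for AG120 minus Veh and between -0.68 and -0.086 for AG120_AZA minus AG120, and Kit to between -0.91 and 0.21 for AZA minus Veh, -1.30 and -0.60 for AG120 minus Veh, and -1.32 and -0.21 for the interaction. Angpt1 ranged from -2.04 to -1.03 for AG120 minus Veh and from -1.92 to -0.90 for AG120_AZA minus Veh. Centring on housekeeping genes gave -0.14 for Cd93 in AG120_AZA minus AG120, and shifted the median of all genes by -0.20 for AG120 minus Veh.

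Of the 85 partner and surface genes, 6 were called in AG120_AZA against Veh. The count was 1 without the trend, 2 with a mean of at least 5 (49 genes tested), and from 2 (without AG120_AZA replicate 2) to 10 (without AG120_AZA replicate 1) when a library was left out. Over both AZA levels 10 were called, 3 without the trend, and from 2 (without AG120 replicate 1) to 12 when a library was left out. Over all genes, leaving out a library gave 8 to 103 calls in AG120 against Veh, main count 71, and 37 to 727 in AG120_AZA against Veh, main count 371; without the trend these were 0 and 43. AG120 against Veh gave 44 higher and 27 lower calls, and 50 higher and 71 lower after centring on housekeeping genes; over both AZA levels these were 415 and 304, and 272 and 338. AZA against Veh gave 2 calls without the trend and 1 with only its groups fitted. Leaving out a library gave 0 to 213 calls in AG120_AZA against AG120 and 0 to 29 for the interaction, main counts 0.

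With the replicate block the counts of partner and surface genes were 6 and 11, the Alcam call in AG120_AZA against Veh was lost, and the members' differences did not change. Deviations of libraries with the same number correlated at -0.111 to 0.194 over 6 pairs of groups, and 2 were over 0.1. Values this weak show no strong shared deviation, but they cannot exclude a pairing or a batch shared by number. A group left with 1 library was assumed to vary like the others. Depth is unknown and limits Tek, Podxl, Ly6a, Flt3 and Alcam, which lay near the lowest value in some or all libraries.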
